A study of Mus musculus with 12 samples.

Results

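Transcripts of 8 genes of the endogenous opioid system were followed in mouse striatum: the peptide precursor genes Penk, Pdyn, Pomc and Pnoc, and the receptor genes Oprm1, Oprd1, Oprk1 and Oprl1. They were taken by gene symbol, and all 8 were found among the 24421 genes of the count table. The 12 RNA sequencing libraries came from the bilateral striatum of male C57BL/6J mice, an inbred laboratory strain. Of these, 6 belonged to mice injected with saline and 6 to mice injected with 2 mg/kg varenicline, a partial agonist of nicotinic acetylcholine receptors. All mice, controls included, had drunk 20% ethanol in 3 cycles of a limited-access test and had received saline in the first. The assigned injection came 30 min before the session in the other 2 cycles. The comparison is therefore between drug and vehicle in drinking animals, with no ethanol-free group. The labels state neither the age of the mice nor whether 1 library is 1 mouse, so p-values measure the spread between these libraries, which may be technical. Libraries are numbered within a group in order of deposition, which pairs nothing.

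Opioid precursors are cut by proteases into short peptides that act on inhibitory G protein-coupled receptors. Enkephalins, from Penk, bind delta and mu receptors, dynorphins, from Pdyn, prefer the kappa receptor, beta-endorphin, from Pomc, binds mu and delta receptors, and nociceptin, from Pnoc, has a receptor of its own, encoded by Oprl1. In striatum, projection neurons of the indirect pathway, which carry the dopamine receptor gene Drd2, are the main source of enkephalin. Those of the direct pathway, which carry Drd1, are the main source of dynorphin, which acts on kappa receptors of dopamine terminals to lower dopamine release. Mu receptors are dense in patches of striatum called striosomes. Pomc is a gene of pituitary cells and of hypothalamic arcuate neurons. Opioid receptors, and dynorphin with kappa receptors in particular, are long studied in alcohol drinking.

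The coding sequences show what 1 transcript of each precursor can yield. The lines below give each stretch of coding sequence that encodes an opioid core, from GENCODE M21 transcripts (GRCm38), 5′ to 3′. Capitals mark the codons of the core, and the lower-case codons before and after it are where proteases can cut if they encode a pair of basic residues.
Penk copy 1, Met-enkephalin: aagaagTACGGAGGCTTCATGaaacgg
Penk copy 2, Met-enkephalin: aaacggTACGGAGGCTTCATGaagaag
Penk copy 3, Met-enkephalin: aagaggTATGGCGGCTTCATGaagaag
Penk copy 4, Met-enkephalin: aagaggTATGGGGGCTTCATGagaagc
Penk copy 5, Met-enkephalin: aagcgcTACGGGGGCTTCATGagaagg
Penk copy 6, Leu-enkephalin: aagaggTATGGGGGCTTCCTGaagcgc
Penk copy 7, Met-enkephalin: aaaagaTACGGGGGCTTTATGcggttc
Pdyn copy 1, Leu-enkephalin core: aaacgcTATGGCGGCTTTTTGcgcaaa
Pdyn copy 2, Leu-enkephalin core: aaacgcTATGGGGGCTTCCTGcggcgc
Pdyn copy 3, Leu-enkephalin core: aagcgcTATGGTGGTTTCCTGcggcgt
Pomc copy 1, Met-enkephalin core: aagcgtTACGGTGGCTTCATGacctcc
Pnoc copy 1, nociceptin core: aaaaggTTTGGGGGCTTCaccggg

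Penk thus holds 6 Met-enkephalin cores and 1 Leu-enkephalin core, the former in 5 different codings. Pdyn holds 3 Leu-enkephalin cores, and Pomc and Pnoc hold 1 core each. Every core is preceded by a pair of basic residues. In Penk, 4 of the 6 Met-enkephalin cores and the Leu-enkephalin core are also followed by one, and so are all 3 Pdyn cores. Penk copies 4 and 7 are not, and neither are the Pomc and Pnoc cores. A pair after a core marks a possible cut. It does not show that the core is released on its own, in Pdyn or elsewhere. Which peptides are released was not tested.

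Total counts ran from 13340420 to 27917715 per library. Levels are in CPM, counts relative to the library total after TMM scaling, and edgeR's quasi-likelihood test gave log2 fold changes, varenicline minus saline, with standard errors (SE) and p-values adjusted over the 15148 genes tested. Projection neuron markers of striatum were present: saline libraries averaged 240 CPM for Drd1 and 175 CPM for Drd2, and varenicline libraries 300 and 187 CPM. Markers of cortical excitatory neurons differed between libraries. Their score, the mean log2 CPM of 10 genes, was 4.75 to 5.56 with saline and 2.53 to 4.27 in varenicline libraries 1 to 5, but 5.41 in varenicline 6. All 10 of these markers were lower in the varenicline group, 9 at an unadjusted p under 0.05, with a median log2 fold change of -1.10. Slc17a7, the vesicular glutamate transporter gene of these neurons, averaged 590 CPM with saline, above Drd1 and Drd2, and 251 CPM with varenicline. It was at 663 CPM in varenicline 6, and its log2 fold change was -1.23 (edgeR adjusted p = 0.187). Without varenicline 6 it fitted at -1.80 (edgeR adjusted p = 0.00359), in a fit that called 10.7% of all genes. The median of the 10 markers was then -1.55. Markers of septum and pallidum moved the other way, 6 of 6 being higher, 5 at an unadjusted p under 0.05, with a median of 1.00. They summed to 30.5 to 52.4 CPM with saline and 37.0 to 118 CPM with varenicline. At an unadjusted p under 0.05, 9.63% of all tested genes were lower and 7.26% higher. The part of these neighbouring tissues in the results below was not tested. The cortical score entered some fits as a covariate. Apart from varenicline 6, however, it separated the groups, with saline at 4.75 or above and varenicline at 4.27 or below. Those fits leaned on that library to tell score from treatment, so they cannot settle the part of tissue. Varenicline 6 also carried pituitary hormone transcripts, given below with Pomc. Each result is given with that library and, where the call or direction changes, without it.

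Ranked by level per length, in CPM per kilobase of exon over all 12 libraries, the opioid genes spanned more than 3 orders of magnitude. Penk averaged 977 ± 170 (SD, n = 12) and ranked 12 among the 15148 tested genes. Pdyn averaged 36.4 ± 4.87 and ranked 2028. The Penk level per kilobase was 21.4 to 33.3 times that of Pdyn within the single libraries. The receptors followed. Oprl1 averaged 10.1 ± 1.32, Oprd1 7.87 ± 0.844 and Oprk1 6.31 ± 0.897. Neighbours in this stretch overlapped, Oprl1 being above Oprd1 in 11 of 12 libraries and Oprd1 above Oprk1 in 10. Pomc had a mean of 2.35 that came from a single library, and was below Pnoc in 9 of the 12 libraries. Pnoc averaged 1.44 ± 0.652. Oprm1, the mu receptor gene, had the lowest mean over all 12 libraries, 0.681 ± 0.110, and was below Pnoc in 11. Without varenicline 6, Pomc averaged 0.657 ± 0.308 and Oprm1 0.688 ± 0.112 (SD, n = 11), so that their order turned, within the spread. Only the steps from Penk to Pdyn and from Pdyn to Oprl1 separated all libraries of one gene from all libraries of the next. Oprk1 was above Pomc in 11 of 12 libraries, the exception being varenicline 6, where Pomc was at 21.0. Oprk1, at 5.09 or above, also exceeded every library of Pnoc (at most 2.46) and of Oprm1 (at most 0.920).

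None of the 8 genes passed an adjusted p of 0.05, and neither did any other gene tested (0% called). At an unadjusted p under 0.05, Pdyn and Pomc were higher and Oprl1 was lower, where 7.26% and 9.63% of all tested genes were higher and lower at that threshold. Of the 8, 5 had a higher and 3 a lower fitted value with varenicline. Their median log2 fold change was 0.11, beside 0.0074 over all tested genes. Without varenicline 6 the direction turned, with 4 higher, 4 lower and a median of -0.02. In none of them did the groups separate without overlap, as they did in 0.429% of tested genes in the higher direction and 0.330% in the lower. Other fits called some members and are given with each gene. Limma-voom with sample weights called 3, Penk, Pdyn and Oprl1, among the 13.9% of genes it called. DESeq2 called none of the 5 members to which it gave an adjusted p, where it called 3.17% of such genes.

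**Figure D1:**
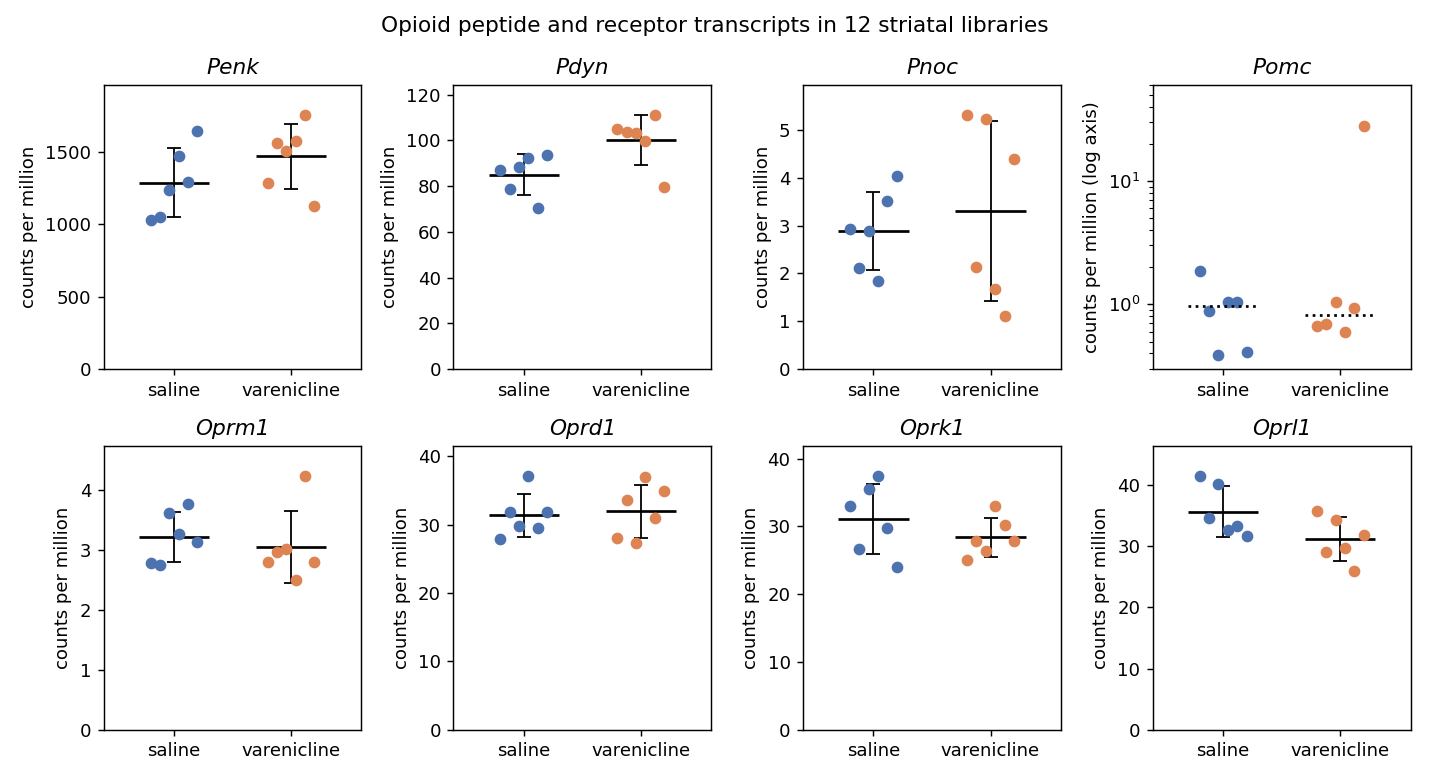
CPM (TMM-scaled) of the 8 opioid genes in each of the 12 libraries, 6 saline (blue) and 6 varenicline (orange), left to right by library number; bars are mean ± SD. For Pomc the axis is logarithmic and dotted lines are medians; varenicline 6 stands at 27.8 while the other 11 libraries lie between 0.388 and 1.86.

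Pdyn, the dynorphin precursor gene (ENSMUSG00000027400, chromosome 2, 129686549 to 129699938 on mm10, minus strand), had the steadiest difference. With saline its levels were 86.9, 78.7, 88.3, 92.2, 70.2 and 93.6 CPM in libraries 1 to 6. With varenicline they were 105, 104, 103, 99.7, 111 and 79.4 CPM. Varenicline libraries 1 to 5 all lay above the highest saline library, and varenicline 6 lay within the saline range. The means were 85.0 ± 8.91 and 100 ± 10.9 CPM (SD, n = 6 each), a log2 fold change of 0.24 (SE 0.082, 95% interval 0.07 to 0.41, edgeR adjusted p = 0.180), or 1.18-fold.

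In edgeR, the call for Pdyn depended on varenicline 6. Without that library the fitted value was 0.31 (SE 0.067, 95% interval 0.17 to 0.45, edgeR adjusted p = 0.00888), in a fit that called 10.7% of all genes. Limma-voom with sample weights called Pdyn with all 12 libraries, at 0.28 (adjusted p = 0.00987). With the cortical score as a covariate, the Pdyn value was 0.05 (95% interval -0.15 to 0.25, edgeR adjusted p = 0.998). With that covariate and without varenicline 6 it was 0.19 (SE 0.12, edgeR adjusted p = 0.590), beside 0.31 without the covariate. The score separates the groups in those libraries, so that fit cannot tell score from treatment. The 5 libraries with the highest Pdyn levels were also the 5 with the lowest cortical score. Whether that mixture of cells accounts for the difference was not tested, and in bulk tissue a change in the number of dynorphin cells cannot be told apart from a change in their RNA.

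Penk, the enkephalin precursor gene (ENSMUSG00000045573, chromosome 4, 4133536 to 4138445, minus strand), varied more. Its saline levels were 1029, 1053, 1240, 1472, 1295 and 1643 CPM in libraries 1 to 6. The varenicline levels were 1289, 1560, 1508, 1576, 1754 and 1128 CPM. The groups overlapped over most of their range, with varenicline 5 highest and saline 1 lowest. The means were 1289 ± 239 and 1469 ± 224 CPM, and the log2 fold change was 0.19 (SE 0.12, 95% interval -0.07 to 0.45, edgeR adjusted p = 0.441). Without varenicline 6 it was 0.27 (adjusted p = 0.132). Limma-voom with sample weights gave 0.37 (adjusted p = 0.0219). With the cortical score as a covariate the sign turned, to -0.12 (SE 0.12, edgeR adjusted p = 0.998). With that covariate and without varenicline 6 it was -0.11 (SE 0.17, edgeR adjusted p = 0.836).

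Ratios within a library do not depend on how libraries are scaled, and were compared by enumerating all 924 ways to assign the libraries to groups (exact permutation, two-sided). For Pdyn over Penk, the log2 ratio averaged -3.91 ± 0.245 in saline libraries, against -3.86 ± 0.136 in varenicline libraries (SD, n = 6 each; exact p = 0.703). Relative to Drd1, the dopamine receptor gene of the same neurons, Pdyn stood at -1.49 ± 0.191 and -1.56 ± 0.205 (exact p = 0.574). Pdyn thus did not differ relative to Drd1 beyond the spread of the libraries, and only 2 of 6 varenicline libraries were above the saline mean of that ratio. Drd1 itself had a log2 fold change of 0.32 (SE 0.13, edgeR adjusted p = 0.236), and 0.44 without varenicline 6 (adjusted p = 0.00631). The log2 ratio of Penk to Drd2 was 2.90 ± 0.136 and 2.97 ± 0.0430 (exact p = 0.242), with all 6 varenicline libraries above the saline mean. After adjustment over the 4 ratios examined, all had p = 0.703 in the permutation test. The direct pathway list, with 5 of 6 markers higher and 3 at an unadjusted p under 0.05, had a median log2 fold change of 0.25. The indirect pathway list had 5 of 5 higher, 1 at that threshold, with a median of 0.16, where 7.26% of all tested genes were higher at that threshold.

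**Figure D2:**
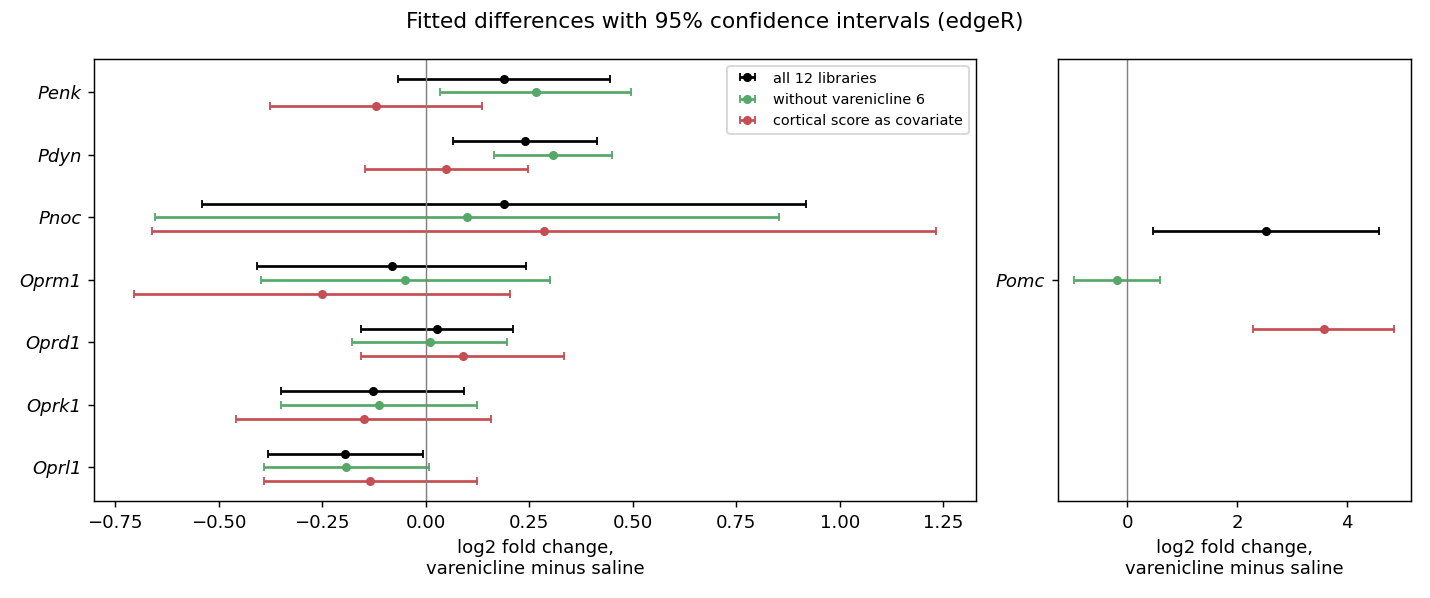
Fitted log2 fold changes, varenicline minus saline, with 95% confidence intervals from edgeR for each opioid gene; Pomc has an axis of its own. Black uses all 12 libraries, green leaves out varenicline 6 and red adds the cortical score as a covariate; Pdyn moves from 0.24 to 0.31 and 0.05, and Pomc from 2.52 to -0.19 and 3.57.

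Across the 12 libraries both striatal precursors ran against the cortical score. For Pdyn, Pearson's r was -0.81 (permutation p = 0.00168, adjusted p = 0.0605 over 36 relations) and Spearman's rho -0.84 (permutation p = 0.00126, adjusted p = 0.0340). For Penk, r was -0.74 (permutation p = 0.00629, adjusted p = 0.0755) and rho -0.80 (permutation p = 0.00314, adjusted p = 0.0377). Without the 2 libraries farthest from the median score, varenicline 3 and 5, r was -0.83 for Pdyn and -0.77 for Penk. Within the saline libraries r was -0.62 for Pdyn and -0.91 for Penk. Within the varenicline libraries r was -0.77 and -0.79, which rested on varenicline 6: over varenicline 1 to 5 it was -0.23 and -0.48. Over the 11 libraries without varenicline 6, r was -0.79 for Pdyn and -0.71 for Penk. Penk and Pdyn together had r = 0.68 (permutation p = 0.0166, adjusted p = 0.149), rho = 0.67 (permutation p = 0.0201, adjusted p = 0.181) and r = 0.66 without saline 1 and 2. The log2 CPM values of 1 library share its scaling, so genes are not independent of each other.

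**Figure D3:**
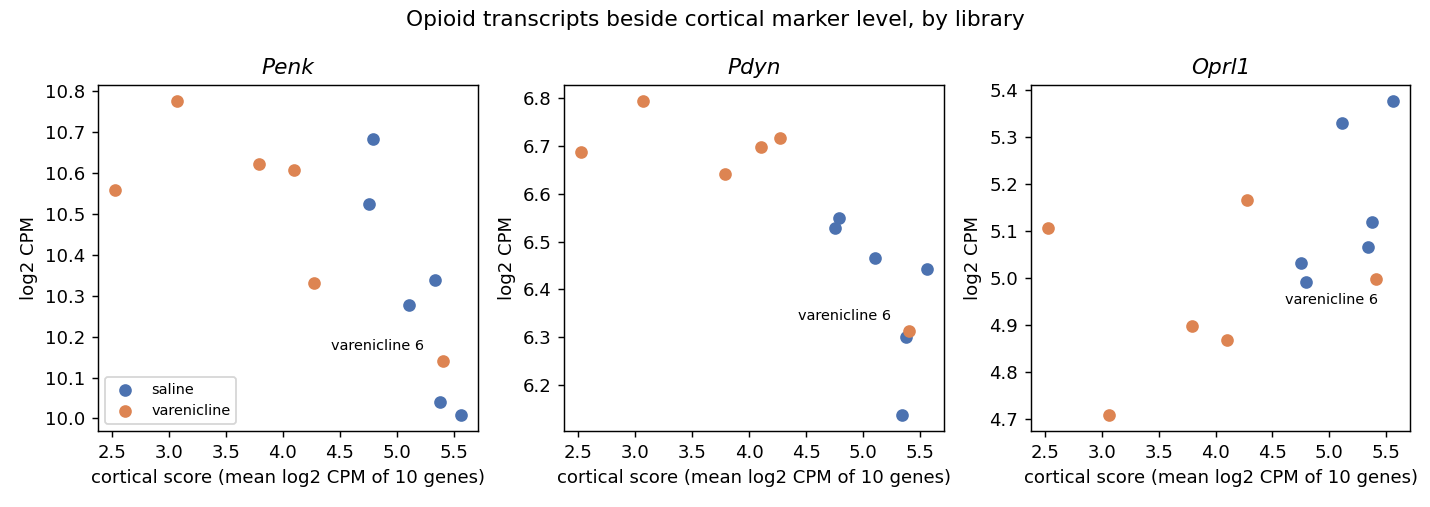
Log2 CPM of Penk, Pdyn and Oprl1 (vertical axes) against the cortical score, the mean log2 CPM of 10 cortical excitatory markers (horizontal axis), 1 point per library. Varenicline 6 sits among the saline libraries at a score of 5.41, and Penk and Pdyn fall as the score rises (r = -0.74 and -0.81).

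Pomc (ENSMUSG00000020660, chromosome 12, 3954945 to 3960643, plus strand), the precursor gene of beta-endorphin and of corticotropin, was scarce in 11 libraries and abundant in 1. Its saline counts were 26, 24, 9, 29, 26 and 9 in libraries 1 to 6. The varenicline counts were 9, 17, 25, 13, 16 and 487. Varenicline 6 alone thus held 27.8 CPM, and the other 11 libraries 0.388 to 1.86 CPM, above the 0.109 to 0.221 CPM to which 3 counts correspond. The fitted log2 fold change of 2.52 (SE 0.97, edgeR adjusted p = 0.207) rested on that library, and without it the value was -0.19 (SE 0.37, 95% interval -0.98 to 0.60, adjusted p = 0.789). Fitted on all 12 libraries beside the cortical score, Pomc passed at 3.57 (edgeR adjusted p = 0.0334), in a fit that called 0.0792% of genes. With that covariate and without varenicline 6 it was -0.26 (adjusted p = 0.914).

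Transcripts of 3 pituitary hormone genes, Gh, Prl and Cga, were also highest in that library. Gh, growth hormone, had 142 counts in varenicline 6 and at most 11 elsewhere, the 11 being in varenicline 2. Prl, prolactin, had 17 counts there and at most 3 elsewhere, and Cga, the common hormone subunit, had 6 and 0. Prl, Cga and Lhb were named after their values were seen. The 10 pituitary markers summed to 9.70 CPM in varenicline 6, to 0.335 to 0.945 CPM in the other varenicline libraries and to 0.0363 to 0.526 CPM with saline. Lhb, a gonadotropin subunit on the same list, had 2 counts in varenicline 6 and up to 11 elsewhere, so that it was not highest there. In varenicline 6, 4 of the 10 were at 0, Tshb, Fshb, Pou1f1 and Pitx1, while Tbx19, a factor of Pomc cells, had 2 counts.

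Markers of hypothalamus were examined in the same way. The 11 hypothalamic markers summed to 17.4 CPM in varenicline 6, to 11.3 to 16.2 CPM in the other varenicline libraries and to 11.8 to 14.4 CPM with saline. Agrp, a peptide gene of arcuate neurons, had 2 counts in varenicline 6 and up to 5 elsewhere. Of markers with at least 20 counts there, the regulator gene Tbx3 was at 8.10 CPM against at most 5.74 CPM in any other library, while Nkx2-1 at 4.05 CPM and Trh at 4.45 CPM lay within the range of the others. Pcsk1, a protease gene that acts on Pomc protein, was named outside the rule given below. It was at 17.9 CPM in varenicline 6 and at most 16.7 CPM elsewhere, a small margin that was not tested. The part of pituitary tissue in the Pomc count was not tested.

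**Figure D4:**
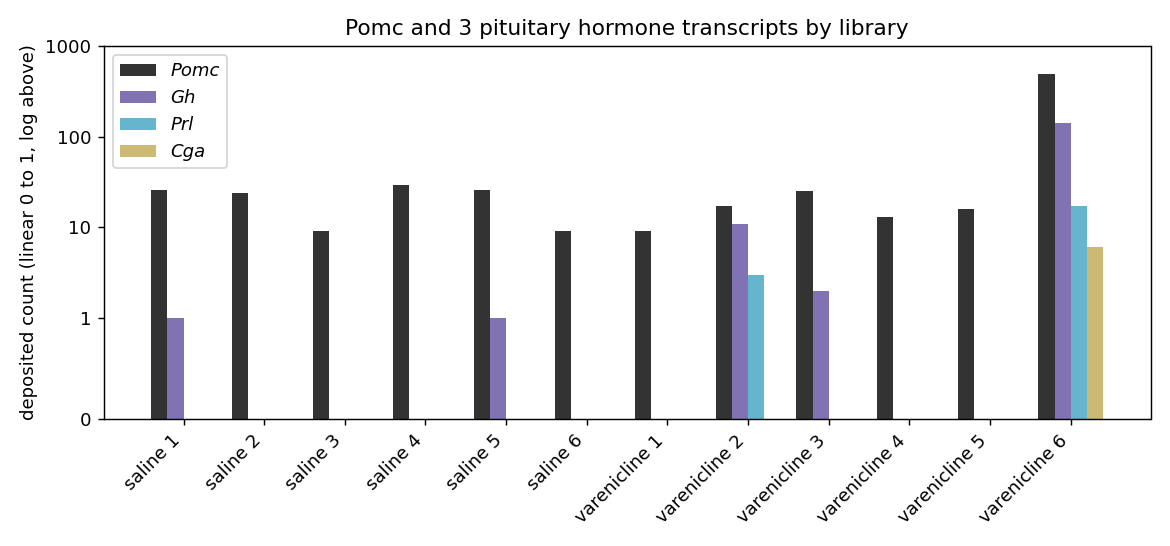
Deposited counts of Pomc and of the pituitary hormone genes Gh, Prl and Cga in each library; the vertical axis is linear from 0 to 1 and logarithmic above. Varenicline 6 holds 487, 142, 17 and 6 counts, and the next highest library of each gene holds 29, 11, 3 and 0.

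Pnoc, the nociceptin precursor gene (ENSMUSG00000045731, chromosome 14, 65400673 to 65425472, minus strand), was thinly counted, with 19 to 125 counts per library. With saline its levels were 2.93, 2.12, 2.89, 1.85, 3.52 and 4.03 CPM in libraries 1 to 6. With varenicline they were 5.31, 2.14, 5.23, 1.67, 1.10 and 4.39 CPM. The varenicline libraries reached further both up and down, and varenicline 1, 3 and 6 exceeded every saline library. The log2 fold change was 0.19 (SE 0.34, 95% interval -0.54 to 0.92, edgeR adjusted p = 0.819). The coefficient of variation was 28.5% with saline and 57.1% with varenicline, and that difference in spread was not tested.

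Oprl1, the nociceptin receptor gene (ENSMUSG00000027584, chromosome 2, 181715016 to 181720985, plus strand), had the lowest p among the receptors. Its saline levels were 41.5, 34.7, 40.1, 32.6, 33.4 and 31.7 CPM in libraries 1 to 6. Its varenicline levels were 35.8, 29.1, 34.4, 29.7, 26.0 and 31.8 CPM. Saline 1 and 3 stood above all varenicline libraries, and varenicline 2, 4 and 5 below all saline libraries. The means were 35.7 ± 4.12 and 31.1 ± 3.61 CPM, a log2 fold change of -0.19 (SE 0.088, 95% interval -0.38 to -0.0066, edgeR adjusted p = 0.279). It was -0.19 without varenicline 6 (adjusted p = 0.213). Adjusted for the cortical score it was -0.13 (edgeR adjusted p = 0.998). Limma-voom with sample weights gave -0.28 (adjusted p = 0.0307). Oprl1 ran against Penk across libraries, with r = -0.74 (permutation p = 0.00494, adjusted p = 0.0755), rho = -0.81 (permutation p = 0.00189, adjusted p = 0.0340) and r = -0.67 without saline 1 and 2. Within the groups r was -0.72 with saline and -0.65 with varenicline. Against the cortical score, Oprl1 had r = 0.52 (permutation p = 0.0827, adjusted p = 0.367), with 0.62 within saline and 0.15 within varenicline libraries. The part of that score in the relation of Oprl1 to Penk was not tested.

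Oprk1, the kappa receptor gene and the main target of dynorphins (ENSMUSG00000025905, chromosome 1, 5588493 to 5606133, plus strand), did not pass. Its saline levels were 33.0, 26.7, 35.5, 37.4, 29.7 and 24.0 CPM in libraries 1 to 6, and its varenicline levels 25.0, 27.8, 26.4, 33.0, 30.2 and 27.9 CPM. All varenicline libraries lay inside the saline range. The log2 fold change was -0.13 (SE 0.10, 95% interval -0.35 to 0.09, edgeR adjusted p = 0.558), and kept its sign in the 22 alternatives run. Leaving out 1 library at a time, it ran from -0.19 without saline 6 to -0.06 without saline 4. Oprk1 is also expressed in claustrum, whose 4 markers were all lower in the varenicline group at an unadjusted p under 0.05. Their median log2 fold change was -0.67, and 9.63% of all tested genes were lower at that threshold. The part of claustrum in the Oprk1 level was not tested.

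Oprd1, the delta receptor gene (ENSMUSG00000050511, chromosome 4, 132110726 to 132144486, minus strand), showed the smallest difference. Its saline levels were 27.9, 31.8, 29.9, 37.1, 29.6 and 31.9 CPM in libraries 1 to 6. Its varenicline levels were 28.0, 33.6, 27.3, 37.0, 31.0 and 35.0 CPM, and the ranges nearly coincided. The log2 fold change was 0.03 (SE 0.086, 95% interval -0.16 to 0.21, edgeR adjusted p = 0.903).

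Oprm1, the mu receptor gene (ENSMUSG00000000766, chromosome 10, 6758593 to 7038209, plus strand), had only 38 to 93 counts per library. Its saline levels were 2.78, 2.74, 3.62, 3.26, 3.76 and 3.13 CPM in libraries 1 to 6, and its varenicline levels 2.80, 2.96, 3.01, 2.50, 4.23 and 2.80 CPM. Varenicline 5 was above every other library, and the remaining varenicline libraries lay between 2.50 and 3.01 CPM. The fitted log2 difference was -0.08 (SE 0.15, edgeR adjusted p = 0.826), and ran from -0.19 without varenicline 5 to -0.02 without varenicline 4. Its 95% interval, -0.41 to 0.24, includes changes in either direction. Markers of striosomes, where mu receptors are dense, were lower for 4 of 6 genes, 2 at an unadjusted p under 0.05. Their median log2 fold change was -0.09, and 9.63% of all tested genes were lower at that threshold. Of the Oprm1 exons, 68 bases overlap exons of Ipcef1 on the opposite strand, and no source used here says whether counting used strand. No other member shared exon bases with another gene of the table. The log2 ratio of Oprd1 to Oprm1 averaged 3.25 ± 0.229 in the saline libraries, and 3.36 ± 0.351 in the varenicline libraries (SD, n = 6 each; exact permutation p = 0.537). The difference of 0.11 became 0.01 without varenicline 4 and 0.21 without varenicline 5.

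For each member the genes most like it over the 12 libraries were found by Pearson's r of log2 CPM, as a description. Penk was followed most closely by Bcr (r = 0.98), by Rasgrp2 (0.98), an activator of Rap GTPases, and by Camkv (0.97), and r of the deviations from group means was 0.97 or above for all 3. The genes nearest to Pdyn were Vprbp (0.94), Man1a (0.93), a mannosidase gene, and Naaa (0.93), with 0.88 to 0.90 for the deviations. Those nearest to Oprl1 were Homer2 (0.92), a scaffold of postsynaptic receptors, 1700025G04Rik (0.91) and Gng4 (0.90), a G protein gamma subunit. For Oprk1 they were Kdm8 (0.87), Lin7b (0.85) and Chrdl1 (0.85), for Oprd1 Zc3h10 (0.89), Timm10b (0.89) and Lmbr1l (0.85), and for Oprm1 Pir (0.87) and 4732416N19Rik (0.80). Pnoc had Galnt16 (0.89), Ablim3 (0.89) and 5730559C18Rik (0.88). The genes nearest to Pomc, Efna2 (0.89), Plk3 (0.86) and Ets1 (0.83), rested on varenicline 6, without which r was 0.65, 0.28 and 0.09.

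Genes that make, remove or act on opioid peptides were taken from 4 lists, and none of their 40 tested members passed an adjusted p of 0.05 in edgeR on all 12 libraries. DESeq2 called 2 of them, Gnaz and Kcnip3, where it called 3.17% of all genes given an adjusted p. Limma-voom with sample weights called 11, where it called 13.9% of all tested genes. EdgeR without varenicline 6 called 8, where it called 10.7% of all genes. Of 7 peptide processing genes, 2 were higher and 5 lower, none at an unadjusted p under 0.05, with a median log2 fold change of -0.07. The smallest p were those of Scg5 at -0.09, the chaperone of a convertase, Pcsk2 at -0.08, the convertase itself, and Ctsl at -0.07, a cathepsin. Of 8 peptide-degrading enzymes, 5 were higher and 3 lower, with a median of 0.0078. Mme, neprilysin, which cleaves enkephalins, averaged 59.3 ± 9.57 CPM in the saline and 74.2 ± 14.6 CPM in the varenicline libraries. The fitted difference in log2 was 0.32 (SE 0.13, edgeR adjusted p = 0.237), and 0.44 without varenicline 6 (adjusted p = 0.00709). The next were Ece2 at 0.07 and Dpp3 at -0.05.

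Of 19 genes of receptor signalling and desensitization, 13 were lower and 6 higher, 6 and 1 of them at an unadjusted p under 0.05, with a median of -0.10. Over all tested genes, 9.63% were lower and 7.26% higher at that threshold. Gnaz, an inhibitory G protein alpha subunit, went from a mean of 44.6 ± 3.81 CPM in saline libraries to 35.2 ± 4.94 CPM in varenicline libraries, a log2 fold change of -0.34 (SE 0.085, edgeR adjusted p = 0.135). DESeq2 gave an adjusted p of 0.0188 on the same 12 libraries. EdgeR without varenicline 6, which called 10.7% of all genes, gave -0.41 (adjusted p = 0.00122). Kcnj9 and Kcnj3, subunits of the inwardly rectifying potassium channels that opioid receptors open, had -0.68 (SE 0.21) and -0.64 (SE 0.20), with edgeR adjusted p of 0.147 and 0.152. Both passed without varenicline 6, at -0.95 and -0.82 (edgeR adjusted p = 5.5e-04 and 0.00571). The cortical markers were lower in the same comparison, and the part of cortical tissue in these values was not tested. Among 6 regulators of opioid gene transcription, Kcnip3, whose protein DREAM represses Pdyn, averaged 164 ± 11.9 CPM in the saline and 140 ± 12.1 CPM in the varenicline libraries. Its fitted value was -0.22 (SE 0.063, edgeR adjusted p = 0.145), -0.22 also without varenicline 6 (adjusted p = 0.0386), and DESeq2 gave an adjusted p of 0.0498. Creb1, whose protein activates Pdyn, had 0.16 (SE 0.099, edgeR adjusted p = 0.432). Fosb, an immediate early gene, had 0.35 (SE 0.21, edgeR adjusted p = 0.412), and 0.17 without varenicline 6. The list as a whole had 4 genes higher and 2 lower, with a median of 0.11. Without varenicline 6 it had 3 higher and 3 lower, with a median of -0.02.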

How the data were processed

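RNA of bilateral striatum, 6 libraries per group, was read as single reads of 150 nt from Illumina TruSeq libraries, per the labels' protocols. The authors deposited gene counts, whole numbers that are not normalized, and FPKM values. The submitters' processing notes name TopHat2, featureCounts, Trimmomatic, FastQC, Cuffnorm, Cuffdiff and DESeq2, and the build mm10; no source used here states versions, strand setting or annotation. A table of Cuffnorm values was not used.

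The members and gene lists were chosen with earlier results of these data known. Genes passing filterByExpr (15148, all 8 members among them) received TMM factors and were tested with edgeR 4.0.16 (quasi-likelihood F test, Benjamini-Hochberg adjustment, threshold 0.05) in R 4.3.3. Standard errors and 95% intervals come from that fit. CPM per kilobase used the exon length of the count table. Log2 CPM carried a prior count of 2. Correlation p-values used 100000 permutations over 36 relations. Alternatives used DESeq2 1.42.0, limma 3.58.1 on counts (voom with sample weights) or on log2 FPKM plus 1 or 0.1, other scalings and filters, the cortical score, and each library left out; the cortical score without varenicline 6, and correlations and the level order without that library, were added after seeing the data. All 66 library pairs differed by more than sampling noise (lowest chi-square per degree of freedom 5.90). The tests were tried on simulated counts first. Genes were named by rule: all members, the 3 of each pathway list with the smallest p, the 3 most like each member (1 of those for Oprm1 is not reported here), and Drd1, Drd2, Slc17a7 and pituitary or hypothalamic markers with at least 20 counts in a library that stands apart. Pcsk1, and pituitary or hypothalamic markers with fewer counts, were named outside that rule. Gene lists were described by counts and medians. Opioid cores were found by translating the longest complete coding sequence of each precursor gene. A floor of 3 counts covers counting error only. Figures were drawn with matplotlib 3.10.9.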

Additional observations from a re-analysis of the deposited data

Results flagged for a closer look

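Among 24 sets of 6 values (the 8 genes and 4 ratios in each group), 3 had an extreme value set apart from the rest; at 1 in 20, chance would give 1.2. In log2 CPM, Pdyn was 6.31 in varenicline 6, below the 6.64 to 6.80 of the other varenicline libraries. Pomc was 4.80 in varenicline 6, where the others lay between -0.52 and 0.19. Oprm1 was 2.11 in varenicline 5, above the 1.38 to 1.64 of the others in its group.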

How the results depend on the processing

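The count of genes called was 0 with edgeR and rose to 397 with DESeq2, 2099 with limma-voom, 1 and 7 with limma on FPKM (pseudocount 1 or 0.1), and 12 with the cortical score; leaving out each library it ran from 0 to 1628, the highest without varenicline 6, with 4 without varenicline 2. Opioid members called were 0, but 3 with limma-voom, 1 (Pomc) with the cortical score, and 0 to 1 when each library was left out, the 1 being Pdyn without varenicline 6. Of the 4 pathway lists, 2 genes were called with DESeq2, 11 with limma-voom, and 0 to 8 with each library left out, 8 without varenicline 6. Other size factors moved the median of all genes by at most 0.0065 and changed no member's call. Oprm1, Oprk1 and Oprl1 kept their sign in all alternatives, and so did Pdyn, though its value fell to 0.05 with the cortical score. With that score and without varenicline 6, Pdyn was at 0.19. Penk turned to -0.12 with that score, and to -0.11 with it and without varenicline 6. In that last fit Pomc was at -0.26 and Pnoc at -0.12, and limma-voom put Pnoc at -0.24. With each library left out, the log2 fold change of Pomc ran from -0.19 to 2.77, of Pnoc from -0.0034 to 0.37 and of Oprd1 from -0.0115 to 0.0888. The difference in the ratio of Pdyn to Penk then ran from -0.0154 to 0.112 and of Pdyn to Drd1 from -0.13 to 0.0035; no ratio passed in any alternative. The causes were not tested. Requiring 1 CPM in 6 libraries removed Pomc, which then had no fit. Pnoc and Oprm1 had at most 125 counts per library, so counting error adds to their spread. No paired analysis was possible because every title carries the same replicate number.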
